A study of Mus musculus with 12 samples.

Results

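The aryl hydrocarbon receptor (AHR) pathway was followed through 7 genes in mouse helper T cells: the receptor Ahr, its partner Arnt, the repressor Ahrr and the target genes Tiparp, Cyp1a1, Cyp1b1 and Nqo1. All array probes whose RefSeq accession mapped to these genes were taken, which gave 8 probes in 17 spots, against 41174 probes on the array and 17178 genes with a symbol. The set was chosen by pathway, except that Ahrr was selected on its measured fall with miR-29b, so its values in that comparison are given as a description without a test. The cells came from C57BL/6 mice aged 7 weeks, were stimulated through CD3 and CD28, kept in IL-2, electroporated on days 1 and 4 and harvested on day 5. Dgcr8-deficient cells, which lack a cofactor of the nuclear microRNA processing enzyme Drosha, were given either miR-29b or a control miRNA, and cells of wild-type mice either inhibitors of miR-29 or control inhibitors. The 4 groups each held 3 one-colour Agilent arrays, from mice numbered 2, 3 and 4 of its genotype. Each Dgcr8-deficient mouse gave cells to both treatments, and wild-type samples of the 2 treatments share the same mouse numbers. The labels used here do not name the allele or the Cre line behind the deficiency, nor which miR-29 members the inhibitors block.

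AHR is a ligand-activated transcription factor that waits in the cytoplasm in a chaperone complex with HSP90. After binding a ligand, such as a dioxin or a tryptophan metabolite, it enters the nucleus, pairs with ARNT and binds DNA at elements with a short GCGTG core. It induces detoxifying enzymes such as CYP1A1 and CYP1B1, and it also induces TIPARP and AHRR, which both restrain it. In helper T cells AHR is known for its part in Th17 and regulatory type 1 responses.

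The mature miR-29 strands are shown because miR-29b was the molecule added and the 3 family members share 1 seed. Bases 2 to 8, the seed that pairs with target transcripts, are in capitals, and the sequences are those of RefSeq (GRCm38.p6).
mmu-miR-29b-3p: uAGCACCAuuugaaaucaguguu
mmu-miR-29a-3p: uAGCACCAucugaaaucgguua
mmu-miR-29c-3p: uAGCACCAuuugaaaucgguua
miR-29b-3p is encoded at 2 loci, on chromosome 6 with miR-29a and on chromosome 1 with miR-29c.

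The promoter windows of Ahrr and of the other AHR targets Tiparp and Cyp1a1 are shown because these genes are known to be induced by AHR and the results below follow their transcripts. Each window runs from 250 bases before to 50 bases after the annotated start, in RefSeq's table on GRCm38.p6, and capitals mark the core motif GCGTG or its reverse complement CACGC.
Ahrr, chr13:74292282-74292581, minus strand: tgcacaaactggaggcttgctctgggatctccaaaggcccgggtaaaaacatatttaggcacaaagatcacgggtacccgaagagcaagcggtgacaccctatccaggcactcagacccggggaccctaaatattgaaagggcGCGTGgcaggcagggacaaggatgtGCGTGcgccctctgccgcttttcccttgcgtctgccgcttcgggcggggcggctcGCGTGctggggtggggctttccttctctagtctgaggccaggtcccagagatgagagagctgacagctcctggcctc
Tiparp, chr3:65528197-65528496, plus strand: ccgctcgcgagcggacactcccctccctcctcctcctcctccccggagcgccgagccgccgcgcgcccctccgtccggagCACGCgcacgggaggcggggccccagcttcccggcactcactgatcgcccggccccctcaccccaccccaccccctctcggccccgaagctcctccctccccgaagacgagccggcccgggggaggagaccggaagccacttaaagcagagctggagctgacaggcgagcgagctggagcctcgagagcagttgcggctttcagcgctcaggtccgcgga
Cyp1a1, chr9:57697363-57697662, plus strand: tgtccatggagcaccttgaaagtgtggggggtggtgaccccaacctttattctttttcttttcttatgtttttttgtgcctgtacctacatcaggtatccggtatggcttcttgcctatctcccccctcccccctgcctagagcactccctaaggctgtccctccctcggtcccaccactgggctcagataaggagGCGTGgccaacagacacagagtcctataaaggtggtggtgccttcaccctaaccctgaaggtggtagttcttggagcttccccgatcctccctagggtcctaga
The Ahrr window held 3 core matches, the Tiparp, Cyp1a1, Cyp1b1 and Arnt windows 1 each, and the Nqo1 window 0. At least 1 match was present in 32.4% of the 32851 windows in the table, and 3 or more in 3.91%. The table matched 6 of the 7 genes, all but Ahr. A match is a stretch of letters and does not show that AHR binds there.

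Levels below are log2 spot signals minus the 75th percentile of the array, so 0 is that percentile, and values of a group are listed in the order of mice 2, 3 and 4. Changes are log2 differences ± standard error from limma, with Benjamini-Hochberg adjusted p-values over 14704 tested genes and a threshold of 0.05. Testing needed a signal well above background on 3 or more of the 12 arrays, and 6 of the 7 genes passed. Each array had 27286 to 31402 probes that bright, and 0 saturated spots. The 7 CD4 T cell markers had summed levels of 8.34 to 8.55 with miR-29b against 7.89 to 8.11 in Dgcr8-deficient controls, which do not overlap, and of 8.13 to 8.43 in wild-type cells. Taken singly, Cd3d, Cd5 and Lck did not overlap between these 2 Dgcr8-deficient groups, while Cd3e, Cd3g, Cd4 and Cd28 did. Of all genes 16.3% did not overlap there. Marker levels also differed by genotype. The 6 B cell markers had summed levels of 2.07 to 3.37 in Dgcr8-deficient cells against -1.51 to -0.81 in wild-type cells. Of 10 myeloid and dendritic markers 7 were tested, of which 5 (Csf1r, Cd14, Adgre1, Flt3 and Xcr1) were well above background on all 12 arrays. Siglech and Lyz2, which were not tested, were so on 0 and 1 arrays. The summed level of the 7 tested markers, -1.63 to -0.30 over all arrays, overlapped between the genotypes. However, Itgax was higher in Dgcr8-deficient than in wild-type controls (limma, adjusted p = 0.00941) and Adgre1 lower (log2 change -2.72 ± 0.51, adjusted p = 0.00348). Itgax was not well above background on any wild-type control array, so its difference is a bound, at least 4.18-fold. It would not have met the brightness filter without the Dgcr8-deficient arrays, where it was high, so its call is a description. Of the CD4 list, Cd28 passed as higher and Lck as lower. Dgcr8 itself lay at -0.71 ± 0.54 in Dgcr8-deficient controls and at 0.35 ± 0.60 in wild-type controls (SD, n = 3 each), a change of -1.06 ± 0.38 that did not pass the threshold (limma, adjusted p = 0.072) and passed once blocked by mouse (adjusted p = 0.0473, and 0.166 in that fit without mouse 3). Whether its probe falls inside the deleted stretch is unknown here. Outlier marks by the scanner software covered 1458 spots of the array of mouse 3 with miR-29b, against 68 to 193 on each other array. Y-linked probes had medians of -7.34 and -8.58 on the 2 arrays of Dgcr8-deficient mouse 3, against -2.08 or higher on the other 10. Results are therefore also given without that mouse where it changes a call. The arrays lay on 4 slides, with the 2 arrays of the same genotype and mouse number on the same one.

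With miR-29b in Dgcr8-deficient cells, Ahrr, which was picked on this fall, stood 6.15-fold below its level with the control miRNA in the fitted means. None of the other 5 tested pathway genes passed the threshold, in a comparison where 2.20% of all genes passed. Ahr and Tiparp were lower with miR-29b in each of the 3 mice, by less than Ahrr. Both passed once the 2 arrays of a mouse were treated as a block, where 27.8% of all genes passed, but not in that fit without mouse 3. In wild-type cells the miR-29 inhibitors left all 6 genes without a change past the threshold, and 0 of all 14704 tested genes passed there. Between the control groups, where 22.0% of all genes passed, Ahr was higher in Dgcr8-deficient than in wild-type cells, 2.79-fold, while the Ahrr levels of the 2 groups overlapped.

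**Figure D1:**
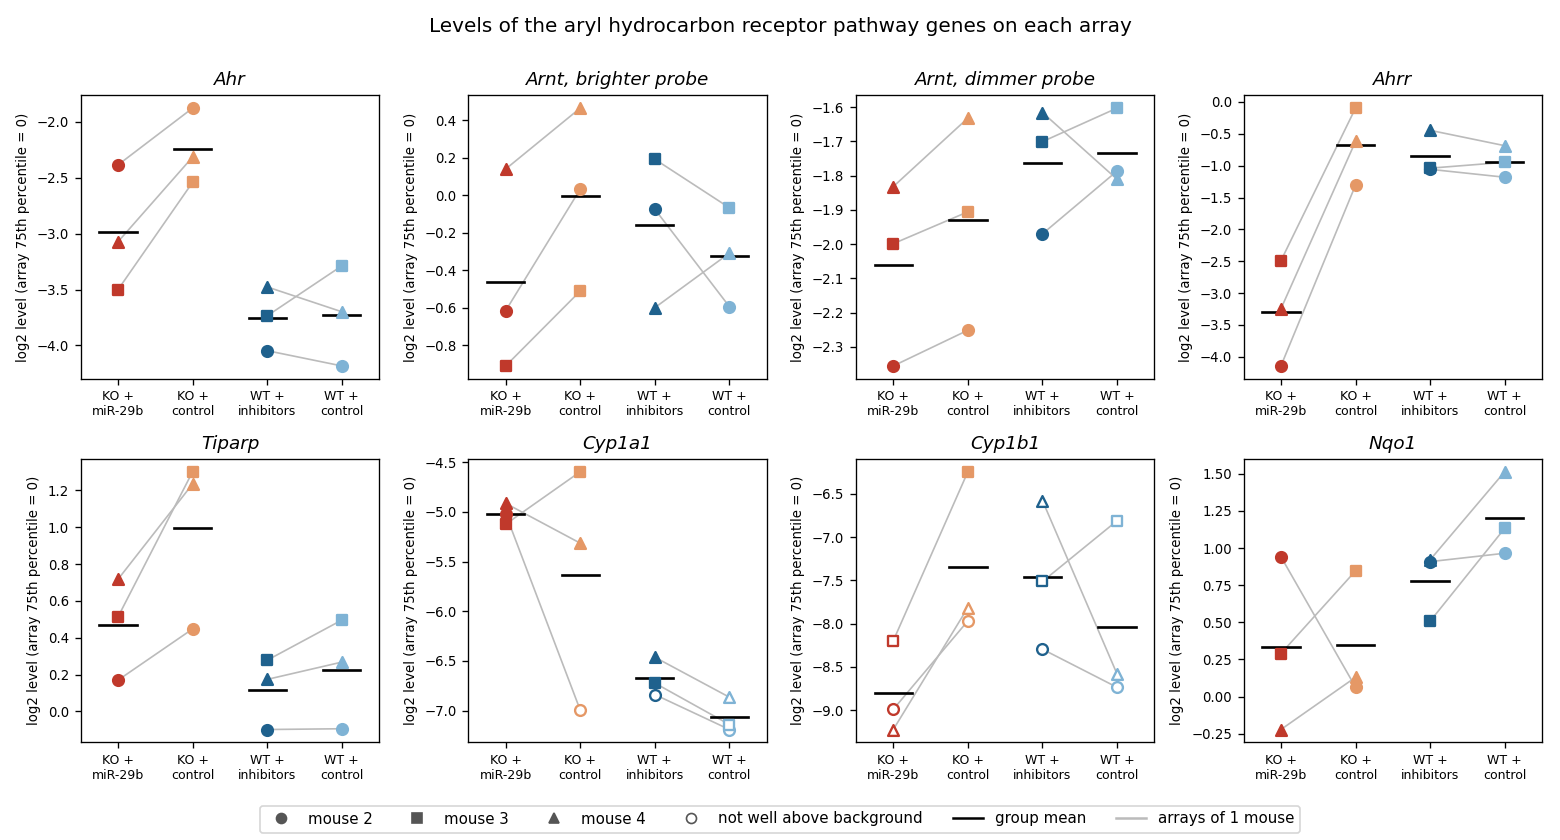
Log2 level of each probe of the pathway on each array (y axis, 0 is the array's 75th percentile), with 1 panel per probe and the groups on the x axis (KO is Dgcr8-deficient, WT is wild type). Points are arrays, grey lines join the 2 arrays of the same genotype and mouse number, black bars are group means and open points are not well above background. The 3 Ahrr points with miR-29b lie at -2.49 or lower, below the other 9 arrays, and the 3 Ahr points of Dgcr8-deficient controls lie at -2.54 or higher, above all 6 wild-type arrays.

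Ahr, the receptor, lies on chromosome 12 (35497979 to 35534989, GRCm38.p6), and its single probe was printed in 10 spots. Ahr had levels of -2.38, -3.50 and -3.07 with miR-29b and of -1.88, -2.54 and -2.31 with control miRNA in Dgcr8-deficient cells. In wild-type cells Ahr had levels of -4.05, -3.74 and -3.48 with inhibitors and of -4.18, -3.29 and -3.70 with control inhibitors. All 3 Dgcr8-deficient control arrays were above all wild-type arrays, and the miR-29b arrays lay between these groups and overlapped both. In order of means, the groups ran from Dgcr8-deficient control (-2.24 ± 0.34, SD, n = 3) through miR-29b (-2.99 ± 0.56) to the wild-type control (-3.72 ± 0.45) and inhibitor (-3.75 ± 0.29) groups, of which the last 2 did not differ beyond their spread. Within an array the spots of Ahr had an SD of 0.06 to 0.13 over 8 to 10 spots that were not marked as outliers, smaller than the SD between mice of any group.

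**Figure D2:**
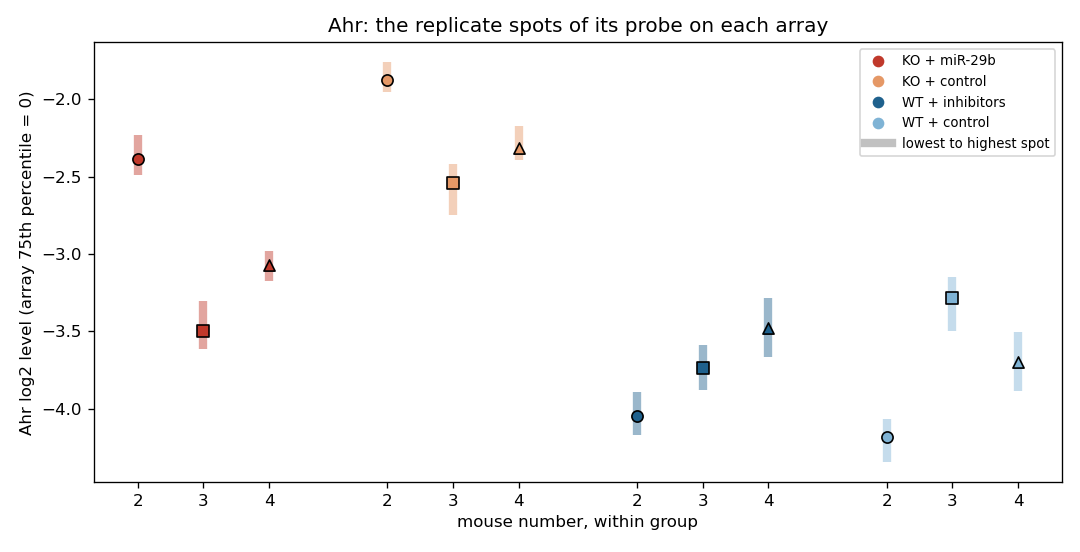
Ahr log2 level (y axis, 0 is the array's 75th percentile) on each array, with mouse numbers within each group on the x axis. Points are the mean of the spots and bars run from the lowest to the highest spot. The bars of the Dgcr8-deficient controls lie at -2.75 or higher and do not reach those of any wild-type array, the highest of which ends at -3.15.

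The change of Ahr with miR-29b was -0.74 ± 0.33, with per-mouse changes of -0.51, -0.96 and -0.76. It did not pass the threshold (limma, adjusted p = 0.33) but did once blocked by mouse (adjusted p = 0.00722). The pairing by mouse comes from the study's design, since cells of each Dgcr8-deficient mouse received both treatments. In the same blocked fit without mouse 3 the change was -0.63 and did not pass (adjusted p = 0.0518). With the inhibitors Ahr changed by -0.03 ± 0.33 (95% interval -0.75 to 0.69, adjusted p = 1).

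Between the control groups Ahr was higher in Dgcr8-deficient cells by 1.48 ± 0.33 (limma, adjusted p = 0.00841), and it passed in all 25 alternative settings, with adjusted p-values of 0.00468 to 0.0379 and changes of 0.81 to 1.76. On each of the 2 slides with arrays of both genotypes, Ahr differed by 2.31 and 0.97. Of the 5 tested genes other than Ahrr, only Ahr passed here, a share close to the background, since 22.0% of all genes passed in this comparison and 20.4% with the mouse as a block. The groups did not overlap for Ahr and Nqo1, as for 36.9% of all genes. The genotypes also received different kinds of control oligonucleotide, and these 2 differences cannot be told apart. The B cell markers moved with genotype as well: 5 of the 6 passed as higher in Dgcr8-deficient controls, among them Ms4a1 by 5.86 ± 0.56 and Cd79b by 3.83 ± 0.33 (limma, adjusted p at most 0.0103 for the 5). The part of these markers, and of Itgax and Adgre1, in the Ahr difference was not tested. In such bulk samples, fewer cells of a type and less RNA per cell cannot be told apart. This comparison and that of miR-29b share the Dgcr8-deficient control arrays, so their values for a gene are not independent of each other.

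Arnt, which pairs with AHR and also with the hypoxia-inducible factors, lies on chromosome 3 (95434367 to 95497240) and had 2 probes. The brighter Arnt probe had levels of -0.62, -0.91 and 0.14 with miR-29b and of 0.03, -0.51 and 0.46 with control miRNA in Dgcr8-deficient cells. In wild-type cells it had levels of -0.08, 0.19 and -0.60 with inhibitors and of -0.60, -0.07 and -0.31 with control inhibitors. All 4 groups overlapped. Arnt was lower with miR-29b in all 3 mice, by 0.33 to 0.65 on the log2 scale, but the change of -0.46 ± 0.34 did not pass (limma, adjusted p = 0.629, and 0.0646 once blocked by mouse). The dimmer probe gave -0.13 ± 0.21 in that comparison. The 2 probes differed in sign between the controls of the genotypes, at 0.32 ± 0.34 and -0.20 ± 0.21, and neither passed. With the inhibitors they gave 0.16 and -0.03.

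Ahrr, which competes with AHR for ARNT and represses its targets, lies on chromosome 13 (74211118 to 74292331). Its probe had levels of -4.14, -2.49 and -3.25 with miR-29b and of -1.31, -0.10 and -0.62 with control miRNA in Dgcr8-deficient cells. In wild-type cells Ahrr had levels of -1.06, -1.04 and -0.45 with inhibitors and of -1.18, -0.95 and -0.69 with control inhibitors. The 3 miR-29b arrays were the lowest of the 12, and the other 3 groups overlapped one another. In signal units the miR-29b arrays read 58.1 to 150, against 470 to 1058 on the Dgcr8-deficient control arrays, all well above background. The probe was well above background on all 12 arrays, so the low values are measured levels and not bounds.

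The mean of Ahrr was -3.29 ± 0.83 with miR-29b and -0.67 ± 0.61 with control miRNA (SD, n = 3 each), and the per-mouse changes of -2.84, -2.40 and -2.63 lay closer together than the levels did. Over 25 alternative settings the change ranged between -3.02 and -1.92. These values picked the gene and carry no test.

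The inhibitor comparison used other mice than those that picked Ahrr. There Ahrr averaged -0.85 ± 0.35 with inhibitors and -0.94 ± 0.25 with control inhibitors (SD, n = 3 each). The change was 0.09 ± 0.42 (95% interval -0.83 to 1.01, limma, adjusted p = 1), with changes of 0.12, -0.09 and 0.24 between arrays of the same mouse number. Treating the mouse as a block narrowed the interval to -0.29 to 0.47. For wild-type arrays that block rests on shared mouse numbers, since the design states the pairing only for Dgcr8-deficient mice. It also used 1 consensus correlation for both genotypes, so the narrower interval depends on these assumptions. Across all genes 0 passed in this comparison with limma, and 61 had an unadjusted p under 0.05. In the fit blocked by mouse 5 passed, 0.0340% of the genes tested: Srd5a1, H2-Aa, Mef2c, Ocln and Khdc1a, named because they were so few. None is in the pathway. Of all genes, 2.80% had inhibitor and control groups that did not overlap, and of the pathway genes Nqo1 and Cyp1a1 did not overlap, the second near background.

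Ahrr differed by 0.27 between the control groups in its fitted means, given as a description because the Dgcr8-deficient control arrays also picked the gene. Within the 2 mixed-genotype slides it differed by -0.12 and 0.33.

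**Figure D3:**
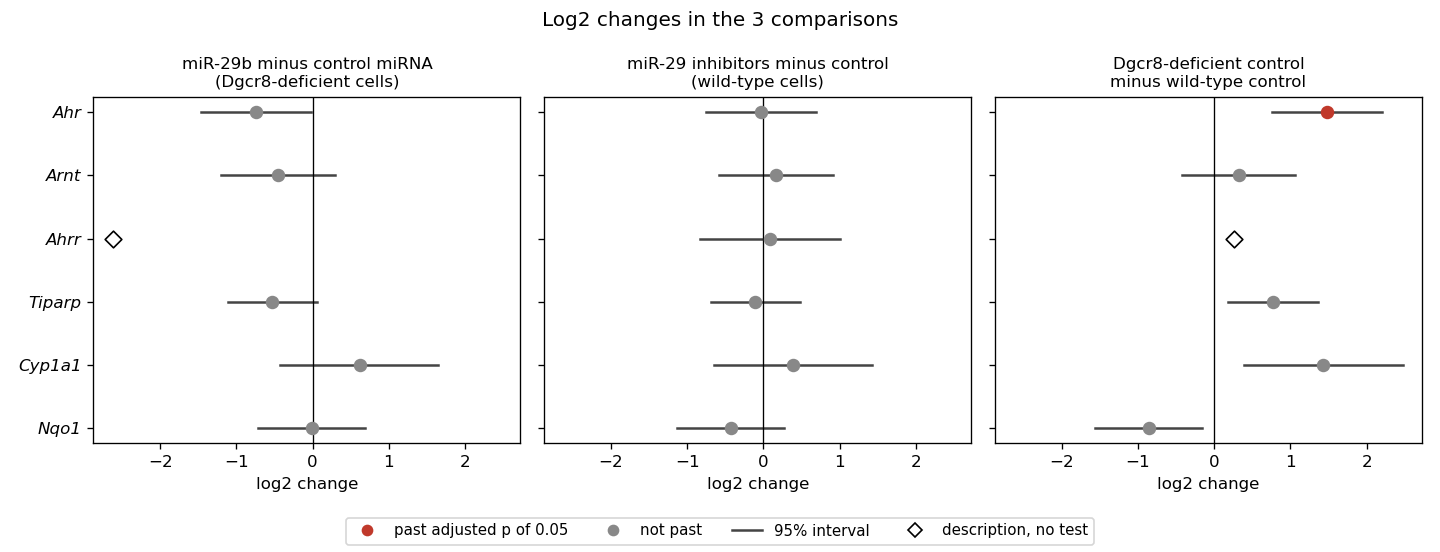
Log2 change (x axis) of the 6 tested genes (y axis) in the 3 comparisons, with 95% intervals as lines. Red points passed an adjusted p of 0.05, grey points did not, and diamonds mark Ahrr where its values picked it or share arrays with those that did. The single red point is Ahr at 1.48 between the control groups.

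Tiparp, an AHR-induced ADP-ribosyltransferase that inhibits AHR, lies on chromosome 3 (65528447 to 65555518). It had levels of 0.17, 0.51 and 0.72 with miR-29b and of 0.45, 1.30 and 1.23 with control miRNA in Dgcr8-deficient cells. In wild-type cells Tiparp had levels of -0.10, 0.28 and 0.17 with inhibitors and of -0.09, 0.50 and 0.27 with control inhibitors. The lowest Dgcr8-deficient control array overlapped the miR-29b and the wild-type control arrays, and the other 2 were the highest of the 12.

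With miR-29b Tiparp was lower in all 3 mice, by 0.28, 0.79 and 0.52 on the log2 scale. The change of -0.53 ± 0.26 did not pass (limma, adjusted p = 0.411) but did once blocked by mouse (adjusted p = 0.0104) and once blocked by slide (adjusted p = 0.026). With the inhibitors it changed by -0.11 ± 0.26 (95% interval -0.69 to 0.48, adjusted p = 1). Tiparp differed by 0.77 ± 0.26 between the control groups, which did not pass (limma, adjusted p = 0.062). It passed once blocked by slide (adjusted p = 0.00471), once blocked by scan day (adjusted p = 0.0183), among genes above background on all arrays (adjusted p = 0.048) and without the Dgcr8-deficient control array of mouse 2 (change 1.04, adjusted p = 0.0162).

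Blocked by mouse, 2 of the 5 tested genes other than Ahrr, Ahr and Tiparp, passed as lower with miR-29b and 0 as higher. In that fit 27.8% of all genes passed, and 10.7% passed as lower. Tiparp, like Ahr, did not pass in the blocked fit without mouse 3 (change -0.40, adjusted p = 0.0955). Of the 7 CD4 T cell markers, 3 passed as higher with miR-29b when blocked by mouse and 0 as lower, against 2505 and 1579 of all 14704 genes. They were Cd3d, Cd5 and Lck (adjusted p = 0.00417, 0.00949 and 0.00229). Cd3e, Cd3g, Cd4 and Cd28 did not pass, with log2 changes of -0.01, 0.24, 0.05 and 0.23. The part of these markers in the changes of Ahr and Tiparp was not tested. Without a block 2.20% of all genes passed, and 16.3% had groups that did not overlap.

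Cyp1a1, the cytochrome P450 that is the classical readout of AHR activity, lies on chromosome 9 (57687928 to 57703824) and was near background in this cell type. Its levels were -5.02, -5.12 and -4.91 with miR-29b and -6.99, -4.60 and -5.32 with control miRNA in Dgcr8-deficient cells. In wild-type cells they were -6.84, -6.72 and -6.46 with inhibitors and -7.19, -7.14 and -6.86 with control inhibitors. Cyp1a1 was well above background on 3 of 3 arrays with miR-29b, 2 of 3 with control miRNA, 2 of 3 with inhibitors and 0 of 3 wild-type controls. Every miR-29b array was above every wild-type array, and mouse 2 with control miRNA was at the wild-type level.

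The change of Cyp1a1 with miR-29b was 0.62 ± 0.47 (limma, adjusted p = 0.647), and the mice disagreed, at 1.97, -0.53 and 0.40. It turned to -0.06 without the control array of mouse 2, and without mouse 3 it was 1.19, which passed in the fit blocked by mouse (adjusted p = 0.0298). Between the control groups the change was 1.43 ± 0.47 (adjusted p = 0.0524) and did not pass. No fold is given, because Cyp1a1 was measured on 2 of the 3 Dgcr8-deficient and 0 of the 3 wild-type control arrays. Without the Dgcr8-deficient arrays, where it was higher, Cyp1a1 would not have met the brightness filter. Its calls between the control groups are therefore descriptions. Cyp1a1 passed there without the Dgcr8-deficient control array of mouse 2 (change 2.11, adjusted p = 0.000596) and once blocked by scan day (adjusted p = 0.0456), and with normexp background correction the change was -0.04. With the inhibitors the fitted change was 0.39 ± 0.47 (adjusted p = 1), against control arrays that were all near background, and with normexp it was -0.21, so no direction is given.

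Cyp1b1, the cytochrome P450 on chromosome 17 (79706940 to 79715061), was well above background on 1 of the 12 arrays, the Dgcr8-deficient control of mouse 3, and was left out of the fit. Its levels were -8.99, -8.20 and -9.23 with miR-29b and -7.97, -6.24 and -7.81 with control miRNA in Dgcr8-deficient cells. In wild-type cells they were -8.30, -7.51 and -6.58 with inhibitors and -8.74, -6.81 and -8.58 with control inhibitors. In signal units Cyp1b1 read 2.02 to 13.6, and all but that array gave only a bound, so no fold is given. In a fit of all genes without the filter none of its 3 changes passed (limma, adjusted p of 0.388 to 1).

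Nqo1, a quinone reductase that is induced both by AHR and by the oxidative stress factor NRF2, lies on chromosome 8 (107388225 to 107403205). It had levels of 0.94, 0.29 and -0.22 with miR-29b and of 0.06, 0.85 and 0.13 with control miRNA in Dgcr8-deficient cells. In wild-type cells Nqo1 had levels of 0.91, 0.51 and 0.92 with inhibitors and of 0.97, 1.13 and 1.51 with control inhibitors. The wild-type control arrays were the highest of all, and the 2 Dgcr8-deficient groups overlapped.

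Nqo1 differed by -0.01 ± 0.32 with miR-29b (95% interval -0.71 to 0.69, limma, adjusted p = 0.996), and the 3 mice disagreed in sign. With the inhibitors it was lower by 0.06, 0.63 and 0.59 on the log2 scale in the 3 pairs of the same mouse number, a change of -0.43 ± 0.32 that did not pass (adjusted p = 1). Nqo1 differed by -0.86 ± 0.32 between the control groups (adjusted p = 0.081), and by -0.90 and -1.004 within the 2 mixed-genotype slides. It passed once blocked by scan day (adjusted p = 0.029), without the Dgcr8-deficient control array of mouse 3 (change -1.11, adjusted p = 0.0415) and without the miR-29b array of mouse 2 (adjusted p = 0.0471). Its sign was opposite to that of Ahr and Tiparp in this comparison.

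Among the 6 tested genes the pairwise Pearson r of levels over the 12 arrays was highest between Cyp1a1 and Tiparp (0.657) and between Ahr and Tiparp (0.625). Ahr and Ahrr had an r of -0.183, and Nqo1 had negative values with Ahr (-0.452), Tiparp (-0.426), Arnt (-0.423) and Cyp1a1 (-0.419). Arrays of a mouse share cells and a slide, so these are descriptions. The 5 genes most like Ahrr over the 12 arrays were Gpr137b (r = 0.974), Tuba1a (0.965), Ubac1 (0.964), Pigc (0.959) and Dnmt3b (0.958), the last a de novo DNA methyltransferase. These r include the arrays whose values picked Ahrr, so they are not independent of that choice. All 5 were themselves lower with miR-29b, with log2 changes of -2.03, -1.24, -1.27, -1.84 and -1.96 in the same order. Those most like Ahr were Zfp326 (0.970), Bhlhe40 (0.962), Tmed5 (0.959), Tnfrsf4 (0.957), which encodes the costimulatory receptor OX40, and C330007P06Rik (0.952).

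The genes around the receptor were followed in 7 lists, given as counts beside the values over all genes. In the miR-29b comparison 1 of the 50 tested genes on these lists passed, a share near the 2.20% of all genes. Relb, an NF-kappa-B subunit that can bind AHR, was higher with miR-29b by 0.76 ± 0.15 (limma, adjusted p = 0.0341), with levels of 2.68 to 2.94 against 1.99 to 2.06 in Dgcr8-deficient controls. The call was lost in 14 of 25 alternative settings, with adjusted p up to 0.3. They were 10 of the 12 fits that left out an array, all but those without the wild-type control of mouse 3 or mouse 4 (changes of 0.69 to 0.81), and the fit without mouse 3 (0.70, adjusted p = 0.157), no filter on dim probes, every kept probe and only the arrays of the comparison. In the inhibitor comparison 0 of the 50 passed, as did 0 of all 14704 tested genes. The median change with miR-29b was above that of all genes (0.10) in all 7 lists, from 0.22 to 0.99. The 0.99 is that of the other xenobiotic targets, with only 3 tested genes. The median of all genes itself depended on the scaling, at -0.00454 with quantile normalization.

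Of the chaperone complex, the proteins that hold AHR in the cytoplasm, 1 of 5 genes passed between the control groups, a share near the 22.0% of all genes. Hsp90ab1, the constitutive HSP90, was lower in Dgcr8-deficient controls, at 5.82 to 6.05 against 6.46 to 6.76 in wild-type controls (-0.67 ± 0.17, limma, adjusted p = 0.0172). It lost the call in 6 of 25 alternative settings. Among them were the fits without the Dgcr8-deficient control of mouse 4 or the wild-type control of mouse 2 or 4 (changes of -0.65 to -0.60, adjusted p up to 0.0695). Quantile normalization (-0.41, adjusted p = 0.137) and the authors' values (-0.45, adjusted p = 0.0831) were among them too. The other 4 did not pass.

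Of 10 tested relatives and coregulators, 3 passed as higher in Dgcr8-deficient than in wild-type controls and 0 as lower, where 9.27% of all genes passed as higher and 12.7% as lower, with a list median of 0.33 against -0.08 over all genes. Epas1, the hypoxia-inducible factor HIF-2 alpha and a partner of ARNT, had levels of 5.32 to 5.80 in Dgcr8-deficient controls against 2.70 to 3.59 in wild-type controls, a change of 2.33 ± 0.26 (limma, adjusted p = 0.000196). Ncoa1, a coactivator, was higher by 0.85 ± 0.15 (adjusted p = 0.00317). Hif1a, the other hypoxia-inducible partner, was higher by 1.42 ± 0.45 (adjusted p = 0.0482). That call was lost in 11 of 25 alternative settings. They were quantile normalization, no filter, every kept probe, only the arrays of the comparison, and 7 of 12 fits that left out an array: mouse 2 or 4 of the Dgcr8-deficient controls, wild-type controls or inhibitors, or mouse 2 with miR-29b (changes of 1.11 to 1.42, adjusted p up to 0.167).

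The targets that ARNT and the hypoxia-inducible factors share had 1 of 8 higher and 3 of 8 lower in Dgcr8-deficient controls, against 9.27% and 12.7% of all genes. Slc2a1, the glucose transporter GLUT1, was higher by 0.76 ± 0.22 (limma, adjusted p = 0.0293). Pgk1, a glycolytic enzyme, was lower, at 5.87 to 6.41 against 6.98 to 7.27 in wild-type controls (log2 change -0.97 ± 0.22, adjusted p = 0.0104). Vegfa, an angiogenic factor, was lower (-1.36 ± 0.36, adjusted p = 0.0202), and so was Pfkfb3, a glycolytic regulator (-0.47 ± 0.15, adjusted p = 0.0448, and 0.096 once blocked by mouse). Leaving out 1 array ended the call of Slc2a1 in 5 of 12 fits (Dgcr8-deficient control 2 or 3, or any wild-type control, changes of 0.62 to 0.81), and so did leaving out mouse 3 with or without the block by mouse (0.73). Leaving out 1 array ended the call of Vegfa in 4 (Dgcr8-deficient control 2 or 4, wild-type control 3 or 4, changes of -1.34 to -1.11) and that of Pfkfb3 in 10 (all but Dgcr8-deficient control 3 and miR-29b 4, changes of -0.52 to -0.40). Over all 25 alternative settings, the call was lost in 8 for Slc2a1, 5 for Vegfa and 17 for Pfkfb3.

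Of the other xenobiotic targets of AHR, 3 of 6 were tested and 0 passed in any comparison. Of all genes, 2.20% passed with miR-29b, 0 with the inhibitors and 22.0% between the control groups. Cyp1a2, a cytochrome P450 next to Cyp1a1, had levels of -6.35 to -5.36 with miR-29b against -7.72 to -7.03 with control miRNA, a change of 1.52 ± 0.39 (limma, adjusted p = 0.0817), at least 1.92-fold, which passed once blocked by mouse (adjusted p = 0.0106). Ugt1a6b, a glucuronosyltransferase, changed by 0.99 ± 0.29 (adjusted p = 0.13) and passed with the block too (adjusted p = 0.00371). In that blocked fit 27.8% of all genes passed. The Ugt1a6b probe may also read near-identical members of its family. Gsta1, a glutathione transferase, changed by -0.33 ± 1.48 (adjusted p = 0.969).

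Of the NRF2 list, 1 of 8 tested genes passed between the control groups, where 22.0% of all genes did. Nfe2l2, which encodes NRF2, was higher in Dgcr8-deficient cells by 1.62 ± 0.14 (limma, adjusted p = 4.83e-05), with levels of 3.65 to 3.91 against 2.15 to 2.19 in wild-type controls. The other tested genes of the list did not pass, and the list median was -0.41 against -0.08 over all genes.

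Of the ligand supply list, which holds enzymes and carriers that make or move tryptophan metabolites, 2 of 8 tested genes passed as higher and 1 as lower in Dgcr8-deficient controls, against 9.27% and 12.7% of all genes. Ido1, which starts the breakdown of tryptophan to kynurenine, a ligand of AHR, had levels of 1.03 to 1.42 in Dgcr8-deficient controls against -5.84 to -5.21 in wild-type controls. The Ido1 change was 6.69 ± 0.37, or 103-fold (limma, adjusted p = 3.3e-06), and it passed in all 25 alternative settings, with changes of 4.66 to 6.84. With miR-29b Ido1 lay at -1.11 to 0.65, a change of -1.40 ± 0.37 that did not pass (adjusted p = 0.0867). It passed once blocked by mouse (adjusted p = 0.00368), where 27.8% of all genes passed. In that blocked fit 1 of the 8, Ido1, passed as lower and 2 as higher, against 1579 and 2505 of all 14704 genes. The 2 were Il4i1 (log2 change 0.75, adjusted p = 0.00651) and Ido2 (0.64, adjusted p = 0.0397). Between the control groups Il4i1, an amino acid oxidase that gives AHR ligands from tryptophan, was higher in Dgcr8-deficient cells by 1.88 ± 0.34 (limma, adjusted p = 0.00302). Slc7a5, an amino acid transporter that carries tryptophan and kynurenine, was lower (log2 change -1.71 ± 0.53, adjusted p = 0.0415). That call was lost in 8 of 25 alternative settings, among them those without Dgcr8-deficient control 4, any wild-type control, or inhibitor 2 or 4 (changes of -1.74 to -1.15).

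Of the AHR-linked T cell genes, 4 of 8 tested passed as higher in Dgcr8-deficient controls and 0 as lower, against 9.27% and 12.7% of all genes, with a median of 1.48 against -0.08 over all genes. Maf, a transcription factor that acts with AHR in type 1 regulatory cells, was higher by 3.55 ± 0.26 (limma, adjusted p = 1.73e-05), at 3.45 to 3.91 against -0.19 to 0.66 in wild-type controls. Ccr6, a chemokine receptor of Th17 cells, was higher by 1.72 ± 0.39 (adjusted p = 0.0101). Il21, a cytokine, and Il1r1, an interleukin-1 receptor, were not well above background on any wild-type control array, and were at least 3.39-fold and 2.18-fold higher in Dgcr8-deficient controls (adjusted p = 0.00314 and 0.00656). Neither passed with normexp (0.10 and -0.02) or in the authors' values (0.77 and 0.51). Il21 and Il1r1 met the brightness filter only through Dgcr8-deficient arrays, where they were high. Their calls, and their part in the count and median of this list, are therefore descriptions. Il22, Il17a and Il23r, cytokines and a receptor of Th17 cells, were above background on 1, 0 and 1 of the 12 arrays. The B cell markers, Itgax and Adgre1 given above differed between the same groups as these lists, and their part in them was not tested.

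**Figure D4:**
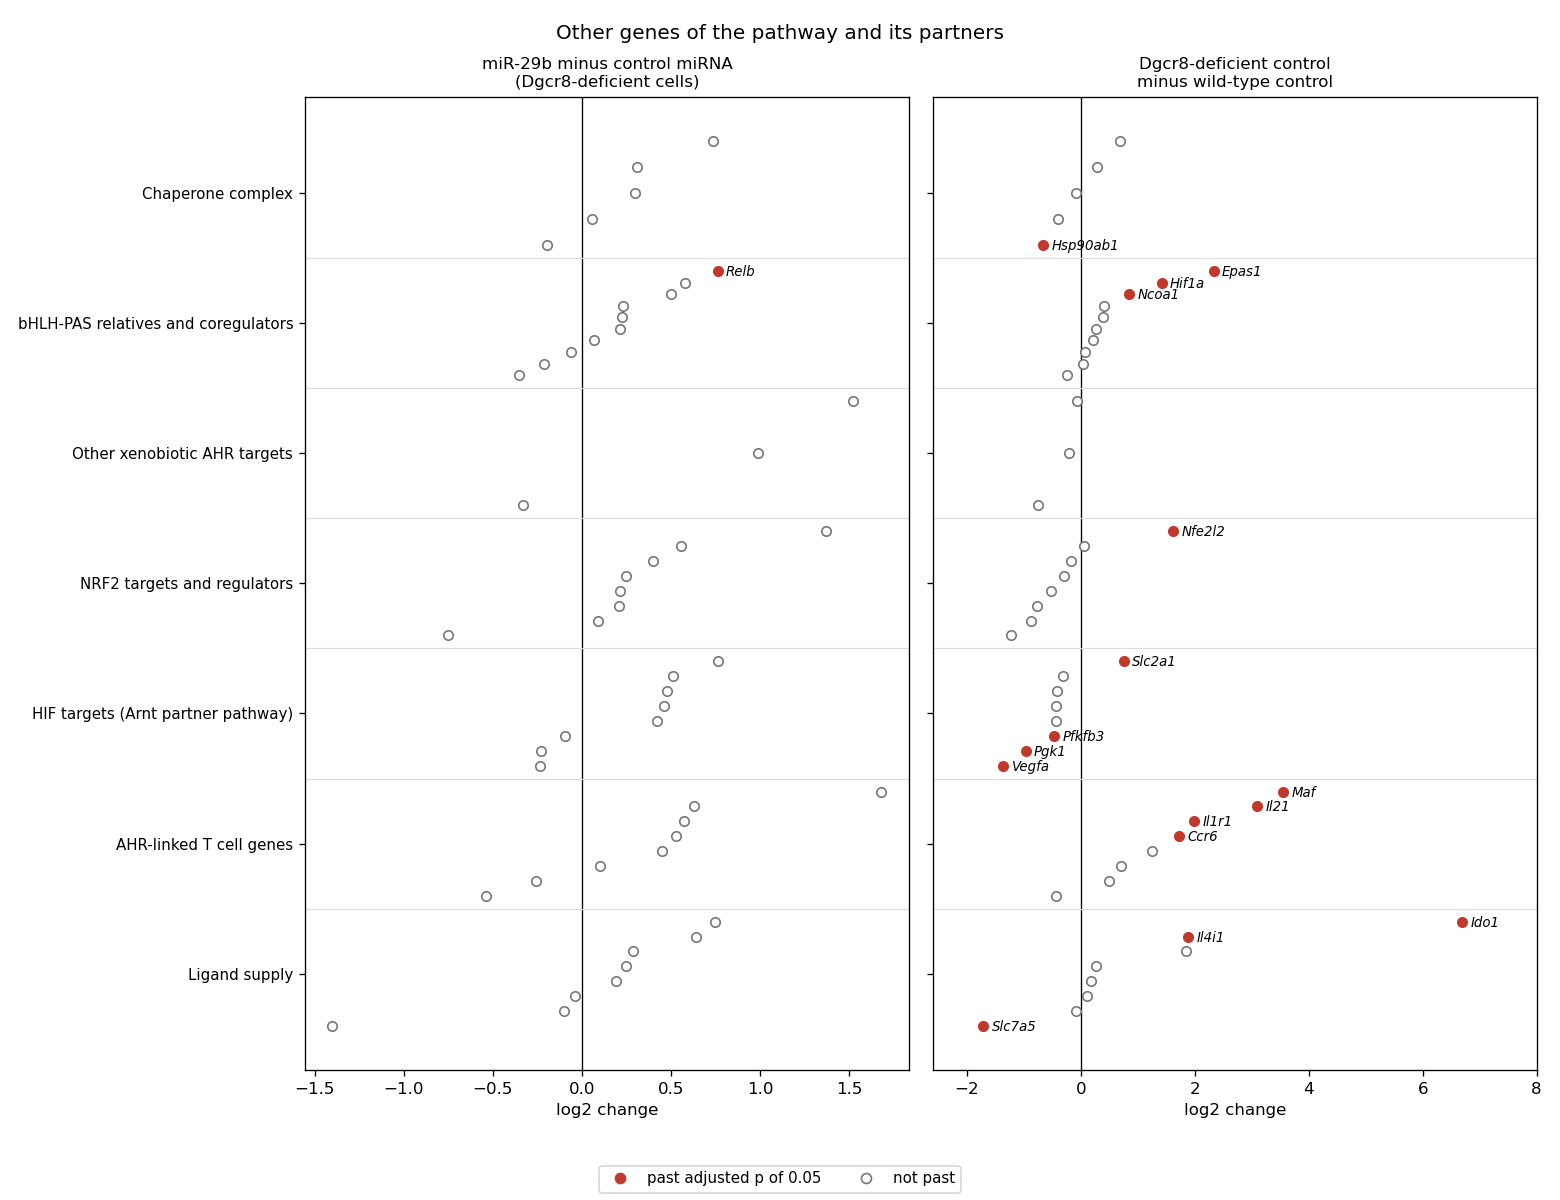
Log2 change (x axis) of the tested genes of 7 lists around the receptor (y axis), with miR-29b on the left and between the control groups on the right, on different scales. Filled red points passed an adjusted p of 0.05. Only Relb is filled on the left, and Ido1 at 6.69 lies farthest from 0 on the right.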

How the data were processed

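RNA of 12 mouse helper T cell cultures was read on one-colour (Cy3) Agilent whole mouse genome 4x44K arrays, 3 in each of 4 groups. The authors deposited scanner intensity values for each array, made with Agilent Feature Extraction 10.5.1.1 per the file headers, and a table of log2 values whose processing names limma, per the submitters' processing notes; the latter served as an alternative. The main value was log2 of the processed intensity minus the array's 75th percentile. Control and outlier-marked spots were left out and spots of a probe were averaged. Probes were named by RefSeq accession, kept when well above background on at least 3 arrays, and the brightest kept probe stood for a gene, 14704 genes in all. limma 3.58.1 in R 4.3.3 was fitted over all 12 arrays, was tested on simulated data, and used an adjusted p threshold of 0.05. The number of arrays limits the precision.

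The 7 genes and the gene lists were chosen with earlier results of these data known. Named by rule were the members, Dgcr8, list genes past the threshold (in a list with none, up to 3 with the smallest p with miR-29b), defining markers near background and the 5 genes with the highest Pearson r with Ahrr and with Ahr; other list genes are named only to complete a list. Same-numbered arrays come from 1 Dgcr8-deficient mouse by the design text; deviations of same-numbered arrays from their group means correlated at 0.647, 0.611 and 0.746 in Dgcr8-deficient and 0.446, 0.726 and 0.418 in wild-type pairs. The mouse block was fitted with a consensus correlation of 0.768. Alternatives covered background correction, scaling, filters, probes, blocks, samples and single arrays left out, 25 in all; the block by mouse without mouse 3 was added after seeing the data. normexp (offset 50) used median spot and background intensities, chosen after seeing the data because the planned mean signal column was not in the files used here.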

Additional observations from a re-analysis of the deposited data

How the results depend on the processing

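The counts moved most with the blocks. Genes past the threshold with miR-29b numbered 324, against 4084 with the mouse as replicate block, 2698 with the slide, 1931 with scan day, 571 in the authors' values, 117 without both arrays of mouse 3, 2661 with the mouse as replicate block without mouse 3 and 92 to 287 with 1 array left out; with only the arrays of the comparison 0 passed with limma, with 1346 at an unadjusted p under 0.05. Counts of pathway genes past it include Ahrr, which was selected on this fall, and are a description: 1 (Ahrr itself), against 3 with the block by mouse, 2 with that block without mouse 3 (Ahrr and Cyp1a1), 2 with the slide and 0 with only those arrays. With the inhibitors 0 genes passed and 5 with the block by mouse. Between the control groups 3232 passed, against 6320 with the slide, 5848 with scan day, 5513 over every kept probe and 2332 to 3401 with 1 array left out, and pathway genes numbered 1, against 2 with the slide, 4 with scan day, 2 with the filter on all arrays and 1 to 3 with 1 array left out. The pathway counts between the control groups with scan day and without Dgcr8-deficient control 2 include Cyp1a1, whose calls there are descriptions. Values that changed sign were near 0 or near background. Nqo1 with miR-29b became 0.0234 with normexp, 0.0232 in the authors' values and 0.263 without mouse 3, with or without the block, and ranged from -0.313 to 0.269 with 1 array left out. Cyp1a1 ranged from -0.0641 to 1.14 with miR-29b, and with normexp it was -0.213 with the inhibitors and -0.0432 between the control groups. With the inhibitors, leaving out 1 array gave -0.11 to 0.217 for Ahrr, -0.259 to 0.188 for Ahr, -0.264 to 0.031 for Tiparp and -0.0138 to 0.382 for Arnt. Between the control groups Ahrr ranged from -0.0242 to 0.581 and was -0.0242 without mouse 3, also with the block, and Il1r1 was -0.0177 with normexp. The median of all genes with miR-29b was 0.104, against -0.00454 with quantile normalization, and the share of higher calls was 46.0%, against 34.5% with quantile normalization and 34.6% with normexp. The causes were not tested. normexp on the mean signal was not run. Signals near background limit Cyp1a1 and Cyp1b1.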
